A study of Canis lupus familiaris with 16 samples.

Results

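Expression of 10 genes of serine synthesis, mitochondrial folate metabolism and amino acid supply was examined in canine soft tissue sarcomas. The 10 genes, of 41818 in the count table, were *PHGDH*, *PSAT1*, *PSPH*, *SHMT2*, *MTHFD2*, *ALDH1L2*, *SLC1A4*, *SLC1A5*, *SLC7A5* and *ASNS*. *ALDH1L2* and *SLC1A4* were chosen by their CPM levels over the tumor types in these same data, so their values by type are given as a description without a test. The other 8 genes were taken for their place in the same pathways, with earlier results of these data known. RNA was extracted from formalin-fixed, paraffin-embedded sections of 16 spontaneous tumors of pet dogs of several breeds. In the groups used here, given by the label for molecular identity, fibrosarcoma (FS) accounted for 4 tumors, peripheral nerve sheath tumor (PNST) for 6 and perivascular wall tumor (PWT) for 6. The dogs were 9 to 13 years old in FS (median 11), 8 to 13 in PNST (median 10) and 2 to 14 in PWT (median 12), and the labels name no treatment. Of the 16 tumors, 7 were of grade 2 or 3, namely 3 FS, 2 PNST and 2 PWT, and 9 were of grade 1 or 1/2.

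Cells make serine from a glycolytic intermediate in consecutive steps catalyzed by PHGDH, PSAT1 and PSPH. In mitochondria, SHMT2 splits serine into glycine and a one-carbon unit carried by folate, which MTHFD2 oxidizes and ALDH1L2 can release as carbon dioxide while forming NADPH. Serine and other neutral amino acids also enter cells through SLC1A4 and SLC1A5, while SLC7A5 carries large neutral amino acids and ASNS makes asparagine. The transcription factor ATF4 is known to induce many of these genes when amino acids are scarce, and proliferating cells use one-carbon units for nucleotide synthesis.

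Several properties of the series bear on all values below. Between 507728 reads (S1-12, an FS) and 4311876 reads (S1-03, a PNST) fell on genes in a tumor. The study had moved S1-10 from PWT to PNST and S2-08 from FS to PWT on the basis of expression. The prefix S1 or S2 of the tumor names was taken as a possible sequencing group, and 3 of 4 FS, 5 of 6 PNST and 1 of 6 PWT were S1. S1-04 and S1-05 have the same label entries and may come from 1 dog. The labelled types were checked against marker lists. Of 6 fibroblast and collagen genes, *COL1A1*, *COL3A1* and *LUM* were higher in FS, where 5.78% of all genes were. Their log2 fold changes were 1.81, 1.61 and 2.28 (edgeR adjusted p = 0.0282, 0.0403 and 0.0485), and *COL3A1* and *LUM* did not pass with the prefix in the model. The others did not pass and went both ways, with *COL1A2* at 0.98, *VIM* at -0.54 and *DCN* at -1.38. Of 8 mural cell genes, 0 were higher in PWT, where 1.41% of all genes were, and their log2 fold changes lay between -1.76 and 0.41. *CNN1*, *ACTA2* and *MCAM* were higher in FS than in both other types, and *MCAM* did not pass with the prefix in the model (edgeR adjusted p = 0.0553). Of the Schwann cell genes, *NGFR* was too low to be tested, and the 4 tested had log2 fold changes of 0.31 to 2.28 in PNST against both other types. In that comparison 0% of all genes passed, so no call of these genes can bear on the label. Summed keratinocyte markers exceeded 500 normalised counts (CPM) in 5 tumors (S1-02 and S1-12 of FS, S1-04 and S1-05 of PNST and S2-03 of PWT), and summed skeletal muscle markers exceeded 50 CPM in 3 (S1-11 of FS, S1-07 and S2-09 of PWT).

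Levels are given as CPM, the counts of a gene per 1e+06 counts on genes after scaling with the trimmed mean of M values (TMM). CPM is not corrected for gene length, so levels were compared between tumors and not between genes. In whole tumor sections, a lower level may mean fewer cells of a type or less RNA per cell, and these cannot be told apart. Summed over the 10 genes, FS tumors lay between 199 and 507 CPM, PNST between 103 and 207 CPM and PWT between 73.4 and 105 CPM. The lowest FS, S1-12, thus fell just under the highest PNST, S1-09. The sum includes *ALDH1L2* and *SLC1A4*, so its differences between types rest partly on that choice. Of mean sums of 386 CPM in FS, 141 in PNST and 87.6 in PWT, *ALDH1L2* gave 93.5, 11.9 and 8.11 CPM. *SLC1A4* gave 53.0, 19.3 and 3.78 CPM. All 10 genes had their highest mean in FS, with the smallest distance to the next type for *SLC7A5*, at 11.9 ± 5.21 CPM in FS (SD, n = 4) and 10.6 ± 7.39 in PNST (n = 6).

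**Figure D1:**
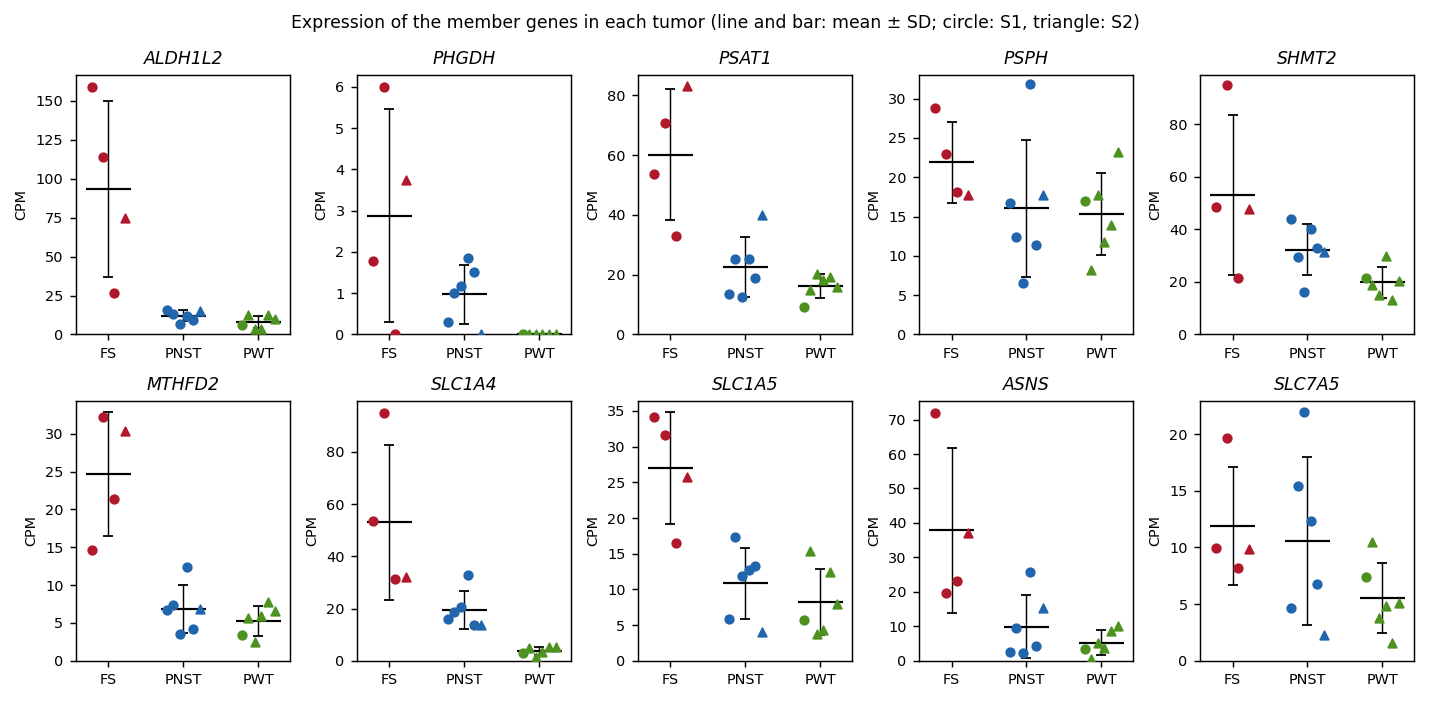
Expression of the 10 genes in CPM (vertical axes, linear and starting at 0) in each of the 16 tumors, by tumor type. Points are tumors (circles S1, triangles S2), lines are group means and bars are SD. The 4 FS lie above every other tumor for *ALDH1L2* (26.3 to 159 CPM) and *MTHFD2* (14.6 to 32.2 CPM), and the 6 PWT lie below every other tumor for *SLC1A4* (1.26 to 5.42 CPM). Of all genes tested, 1.34% lie above in FS and 0.415% below in PWT in this way.

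*ALDH1L2*, the mitochondrial formyl-tetrahydrofolate dehydrogenase, was found at 159, 114, 26.3 and 74.8 CPM in the FS tumors S1-02, S1-11, S1-12 and S2-06. In PNST it ranged from 6.52 to 15.8 CPM (median 12.7) and in PWT from 3.76 to 12.4 CPM (median 8.20). Every FS was above every other tumor, as for 1.34% of all genes tested, and PNST and PWT overlapped. The mean was 93.5 ± 56.5 CPM in FS (SD, n = 4), 11.9 ± 3.55 in PNST (n = 6) and 8.11 ± 4.04 in PWT (n = 6), and FS exceeded the pooled other types by 3.23 on the log2 scale (standard error 0.34). The level in S1-12 rested on 16 reads, with an exact 95% Poisson interval of 15.04 to 42.7 CPM that covers counting error only, and its lower end lies under the 15.8 CPM of S1-03. In the 3 sequencing runs of S1-02 the gene was at 151, 161 and 169 CPM, and the SD between runs was 8.59 CPM in S1-02, 22.7 CPM in S1-11 and 14.0 CPM in S1-12.

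*MTHFD2*, the mitochondrial methylene-tetrahydrofolate dehydrogenase and cyclohydrolase, was at 14.6, 32.2, 21.4 and 30.4 CPM in S1-02, S1-11, S1-12 and S2-06. In PNST it ranged from 3.55 to 12.3 CPM (median 6.79) and in PWT from 2.53 to 7.74 CPM (median 5.75). The 4 FS were again above all 12 other tumors, as for 1.34% of all genes tested, the nearest being the PNST S1-09. The order of the FS tumors differed from that of *ALDH1L2*, with S1-02 the lowest in place of the highest. *SHMT2*, which feeds this pathway from serine, was at 48.4, 94.9, 21.4 and 47.7 CPM in the same FS tumors, from 15.99 to 43.9 CPM in PNST (median 32.1) and from 13.2 to 30.1 CPM in PWT (median 19.5). S1-11 stood highest, and S1-12 lay within the range of both other types.

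Of the genes of serine synthesis, *PHGDH*, whose enzyme commits the glycolytic intermediate to serine, was close to the detection limit. It had 5, 11, 0 and 8 reads in S1-02, S1-11, S1-12 and S2-06, or 1.78, 6.00, 0 and 3.74 CPM. The PNST had 0 to 6 reads (0 to 1.85 CPM) and all 6 PWT had 0. Pooled over tumors, FS was at 3.25 CPM (24 reads) and PNST at 1.02 CPM (16 reads). The pooled FS level was 10.6 times the 0.307 CPM that 3 reads over the 6 PWT would give. This ratio leaves out the counting error of the 24 FS reads and the spread between the 4 FS, of which S1-12 had 0 reads. *PHGDH* failed the filter of at least 10 reads in at least 4 tumors. Tested without that filter, its log2 fold change in FS against both other types was 2.33 (standard error 0.82, edgeR quasi-likelihood test, adjusted p = 0.104). In FS against PWT, where all 6 PWT had 0 reads, it passed with no filter in edgeR and in DESeq2.

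*PSAT1*, the aminotransferase of serine synthesis, was at 53.7, 70.9, 32.9 and 83.2 CPM in S1-02, S1-11, S1-12 and S2-06, from 12.4 to 39.9 CPM in PNST (median 21.99) and from 9.06 to 20.2 CPM in PWT (median 17.1). All FS were above all PWT, and only the PNST S2-07 was above the lowest FS. *PSPH*, the phosphatase that completes the pathway, was at 28.8, 22.9, 18.1 and 17.8 CPM in the 4 FS, while PNST ranged from 6.52 to 31.8 CPM (median 14.5) and PWT from 8.22 to 23.3 CPM (median 15.5). The 3 types overlapped for *PSPH*.

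*SLC1A4*, the alanine, serine, cysteine and threonine transporter ASCT1, had a different mean level in each of the 3 types. It was at 53.7, 94.9, 31.3 and 32.3 CPM in S1-02, S1-11, S1-12 and S2-06. PNST ranged from 13.6 to 33.0 CPM (median 17.4) and PWT from 1.26 to 5.42 CPM (median 4.04), where the level rested on 1 to 13 reads per tumor. The lowest tumor of the other types was 2.51 times the highest PWT, whereas the PNST S1-09 lay above 2 FS. Of all genes tested, 0.415% were lower in every PWT than in every other tumor. The means were 53.0 ± 29.8 CPM in FS (SD, n = 4), 19.3 ± 7.28 in PNST (n = 6) and 3.78 ± 1.62 in PWT (n = 6). The log2 fold change was 1.54 for FS against PNST (standard error 0.35), 2.19 for PNST against PWT (standard error 0.36) and 3.73 for FS against PWT (standard error 0.39).

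*SLC1A5*, the neutral amino acid and glutamine transporter ASCT2, was at 34.2, 31.6, 16.4 and 25.7 CPM in the FS tumors. It ranged from 3.99 to 17.4 CPM in PNST (median 12.3) and from 3.79 to 15.3 CPM in PWT (median 6.83). Of the other 12 tumors, only the PNST S1-04 was above S1-12. *SLC7A5*, the large neutral amino acid transporter LAT1, was at 9.96, 19.6, 8.22 and 9.82 CPM in FS, from 2.28 to 21.9 CPM in PNST (median 9.57) and from 1.55 to 10.5 CPM in PWT (median 4.96). Its highest value was in the PNST S1-05, and the FS tumor S1-11 stood apart from the other 3. *ASNS*, asparagine synthetase, was at 71.9, 19.6, 23.0 and 36.9 CPM in FS, from 2.37 to 25.6 CPM in PNST (median 6.76) and from 0.374 to 10.2 CPM in PWT (median 4.41). Every FS was above every PWT, and the PNST S1-09 lay above 2 FS.

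In tests of FS against both other types, 7 of the 9 genes tested passed, meaning an adjusted p under 0.05 with a change of over 1 on the log2 scale, and all 7 were higher in FS. Over all 15408 genes tested, 9.46% passed, 5.78% higher and 3.68% lower. Nothing is read from the 2 of these genes that were chosen by their levels, *ALDH1L2* and *SLC1A4*. Of the other 7, 5 passed. Their log2 fold changes were 1.67 for *PSAT1* (standard error 0.28, edgeR quasi-likelihood test, adjusted p = 0.00125), 2.03 for *MTHFD2* (0.31, adjusted p = 0.000724), 1.06 for *SHMT2* (0.31, adjusted p = 0.0335), 1.52 for *SLC1A5* (0.35, adjusted p = 0.00982) and 2.36 for *ASNS* (0.56, adjusted p = 0.0112). *PSPH* (0.53, standard error 0.32, edgeR adjusted p = 0.327) and *SLC7A5* (0.60, standard error 0.49, edgeR adjusted p = 0.490) did not pass. The 7 genes not chosen by their levels thus had log2 fold changes of 0.53 to 2.36, and the median over all genes was 0.00.

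The calls differed in how far they held without single tumors or with the prefix of the tumor names in the model. Counts out of 9 genes here and below include *ALDH1L2* and *SLC1A4*, from which nothing is read. *PSAT1* and *MTHFD2* passed in all 27 alternative fits. Without S1-11, the FS with skeletal muscle transcripts, the count was 5 of 9 genes, and over all genes it fell from 1457 to 911. *SHMT2* was then at a log2 fold change of 0.64 (edgeR adjusted p = 0.268). *SHMT2* also stopped just short of a doubling without the PWT S2-09 (1.00, edgeR adjusted p = 0.0461), and *ASNS* did not pass without S1-02 (1.86, edgeR adjusted p = 0.0725). Among the 9 S1 tumors alone, 3 of 9 genes passed (825 of all 14371 genes tested), *PSAT1* and *MTHFD2* being those not chosen by their levels. With the prefix as a term in the model 6 of 9 passed (1457 of all 15408 genes, as without it), *SHMT2* being at 0.99.

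**Figure D2:**
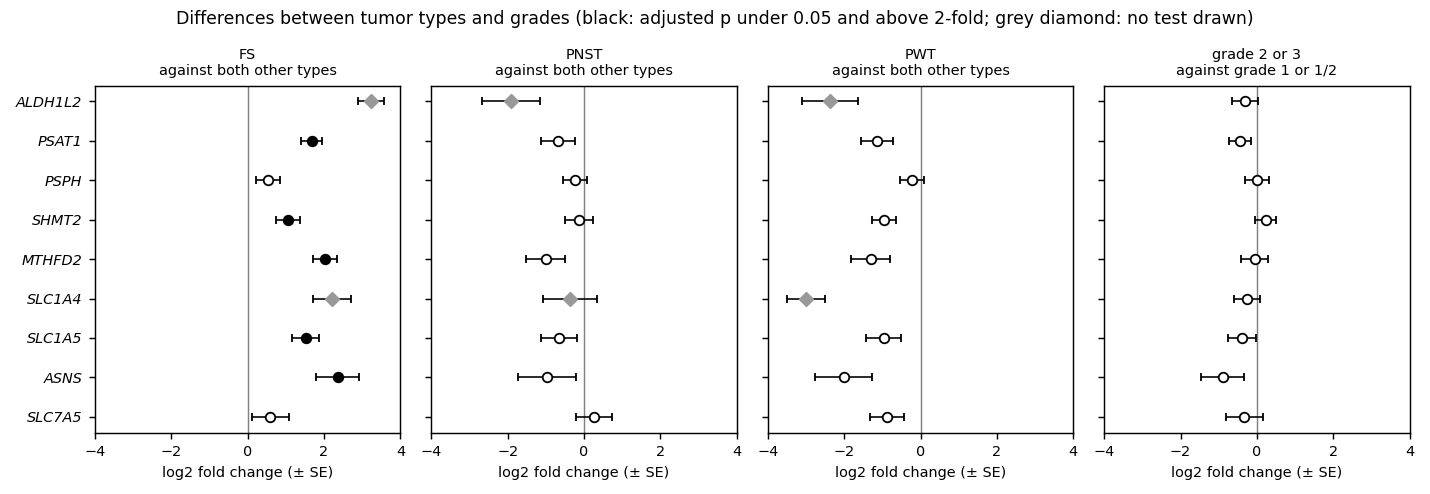
Log2 fold changes (points, horizontal axes) with standard errors (bars) of the 9 genes tested, for each tumor type against both other types and for grade. Black points passed the test, white points did not, and grey diamonds mark *ALDH1L2* and *SLC1A4*, for which the comparison of types is a description. All 9 points lie right of 0 in FS (0.53 to 3.23) and left of 0 in PWT (-2.99 to -0.21).

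In FS against PNST, 5 of the 9 genes passed, all higher in FS, where 7.13% of all genes did (4.15% higher, 2.98% lower). Apart from *ALDH1L2* and *SLC1A4*, these were *PSAT1* (log2 fold change 1.51, edgeR adjusted p = 0.00957), *MTHFD2* (1.92, edgeR adjusted p = 0.00578) and *SLC1A5* (1.41, edgeR adjusted p = 0.0447). *SLC1A5* did not pass when any 1 of 10 tumors was left out (S1-02, S1-11 and S2-06 of FS, S1-03, S1-05, S1-09, S1-10 and S2-07 of PNST, S2-09 and S2-11 of PWT), with edgeR adjusted p-values of 0.0519 to 0.0993. *ASNS* was at 2.02 (edgeR adjusted p = 0.0634), and it passed without the PNST S1-09 (2.59, edgeR adjusted p = 0.0267) or without the PWT S2-03 (2.01, edgeR adjusted p = 0.0390), as well as with DESeq2 (2.06, adjusted p = 0.0354). *SHMT2* was at 0.81 (edgeR adjusted p = 0.144). Without S1-11, 3 of 9 genes passed, and over all genes the count fell from 1099 to 793.

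In FS against PWT, 7 of 9 genes passed, all higher in FS, where 11.2% of all genes did (6.15% higher, 5.05% lower). *PSAT1* (log2 fold change 1.87), *MTHFD2* (2.17), *SHMT2* (1.40), *SLC1A5* (1.65) and *ASNS* (2.91) had edgeR adjusted p-values of 0.00251, 0.00240, 0.0127, 0.0174 and 0.0125. *SLC7A5* was at 1.04 (edgeR adjusted p = 0.219) and *PSPH* at 0.52 (edgeR adjusted p = 0.379). Without S1-11, *SHMT2* (0.98, edgeR adjusted p = 0.0701) and *SLC1A5* (1.58, edgeR adjusted p = 0.0504) did not pass. Both also missed the threshold with the prefix as a term.

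Between PNST and PWT, 0.169% of all genes passed (0.0714% higher, 0.0974% lower in PNST). Of the 7 genes not chosen by their levels, 0 passed, with log2 fold changes of PNST against PWT from -0.01 for *PSPH* to 0.89 for *ASNS* (edgeR adjusted p of 0.989 and 0.456). In PWT against both other types, 2.12% of all genes passed (1.41% higher, 0.714% lower), and 0 of the 7 genes not chosen by their levels did. As a description, *SLC1A4* had a log2 fold change of -2.99 (standard error 0.50), and was at -2.77 with the prefix as a term, when 0 of all genes passed (1633 at an unadjusted p under 0.05). The log2 fold changes of the 7 genes not chosen by their levels were negative in PWT, from -2.01 for *ASNS* to -0.21 for *PSPH*. The median over all genes was -0.08. This comparison pools FS and PNST. In PNST against both other types, 0% of all genes passed (2415 at an unadjusted p under 0.05, and 290 genes passed with DESeq2) and 0 of the 9 did with either tool.

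Tumor grade had no part in the choice of the genes. The 7 tumors of grade 2 or 3 were compared with the 9 of grade 1 or 1/2 with tumor type as a term, and 0 of 9 genes and 0% of all genes passed (edgeR, 0 of the 9 and 1092 of all genes at an unadjusted p under 0.05, and DESeq2 called 14 genes, 0 of them among the 9). Log2 fold changes lay between -0.90 for *ASNS* (standard error 0.57) and 0.23 for *SHMT2* (standard error 0.28), with edgeR adjusted p-values of 0.799 to 1.00.

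Other genes of the same pathways were not uniformly higher in FS. Of 27 further enzymes and carriers of serine, glycine and folate metabolism, 24 could be tested, of which 0 were higher in FS than in both other types and 1 was lower. Over all genes, 5.78% were higher and 3.68% lower, so 0 calls in lists this short do not set them apart from all genes. *GLDC*, the glycine decarboxylase of the glycine cleavage system, failed the count filter. It is named after its values were seen, which were 1.78, 13.1, 37.8 and 35.5 CPM in S1-02, S1-11, S1-12 and S2-06 and at most 3.55 CPM in the other 12 tumors. The gene that was lower was *AMT*, the aminomethyltransferase of the same system, at 50.5 ± 13.2 CPM in FS (SD, n = 4), 155 ± 51.0 in PNST (n = 6) and 132 ± 43.4 in PWT (n = 6). Its log2 fold change was -1.47 (edgeR adjusted p = 0.00480). The median of this list was -0.09. Of 12 genes of purine synthesis, 19 other enzymes of amino acid metabolism and 20 cytosolic tRNA synthetases, 0 passed in either direction, with medians of 0.29, -0.05 and 0.04 and with 4, 3 and 3 genes at an unadjusted p under 0.05. *IMPDH1*, an enzyme of guanine nucleotide synthesis, was lower in PWT (log2 fold change -1.31, edgeR adjusted p = 0.0296), and not so with the prefix as a term (edgeR adjusted p = 0.275). The mitochondrial serine carrier gene *SFXN3* was lower in FS than in PNST (-1.04, edgeR adjusted p = 0.0175), as was the glutamate dehydrogenase gene *GLUD1* (-1.09, edgeR adjusted p = 0.0131). *BCAT1*, which transfers the amino group of branched-chain amino acids, was higher in FS than in PNST (1.88, edgeR adjusted p = 0.0445), and not so with the prefix as a term (edgeR adjusted p = 0.0591). *ADSS2* of adenine nucleotide synthesis was also higher in FS than in PNST (1.11, edgeR adjusted p = 0.0144).

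Among 23 further amino acid transporters, 4 were higher in FS than in both other types and 0 lower, where 5.78% and 3.68% of all genes were. Their median log2 fold change was 0.59. *SLC38A1*, a glutamine transporter, was at 60.7 ± 16.1 CPM in FS (SD, n = 4), 12.6 ± 9.79 in PNST (n = 6) and 17.5 ± 14.5 in PWT (n = 6), and its log2 fold change was 2.03 (edgeR adjusted p = 0.00851). The glycine transporter gene *SLC6A9* was at 21.7 ± 12.4, 5.75 ± 4.03 and 2.78 ± 0.909 CPM in these types, a log2 fold change of 2.32 (edgeR adjusted p = 0.00403). Its level in the FS S2-06 was 4.68 CPM, within the range of PNST. The taurine transporter gene *SLC6A6* (1.77, edgeR adjusted p = 0.0125) and *SLC43A2*, which carries large neutral amino acids (1.92, edgeR adjusted p = 0.0235), were the other two. *SLC3A2*, the partner of SLC7A5 in the membrane, was higher in FS than in PWT (1.45, edgeR adjusted p = 0.0321).

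*ATF4* itself was at 300 ± 67.2 CPM in FS (SD, n = 4), 238 ± 75.0 in PNST (n = 6) and 151 ± 32.5 in PWT (n = 6), and its fold change for FS was 0.68 on the log2 scale (edgeR adjusted p = 0.103). Against PWT alone it was at 0.98 (edgeR adjusted p = 0.0217), under a doubling, with an edgeR adjusted p of 0.197 when the prefix was a term. Of 20 tested genes of the ATF4 and amino acid response, *VLDLR*, a lipoprotein receptor gene (2.78, edgeR adjusted p = 0.000562), and *XPOT*, a tRNA exporter gene (1.04, edgeR adjusted p = 0.00609), were higher in FS and 0 were lower, with a median of 0.37. Over all genes, 5.78% were higher and 3.68% lower. *TRIB3*, *GDF15* and *FGF21* were too low to be tested. *MYC*, whose product also induces several of these genes, was at 29.3 ± 14.0, 70.3 ± 23.6 and 45.4 ± 20.8 CPM in FS, PNST and PWT, a log2 fold change of -0.94 in FS (edgeR adjusted p = 0.129).

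**Figure D3:**
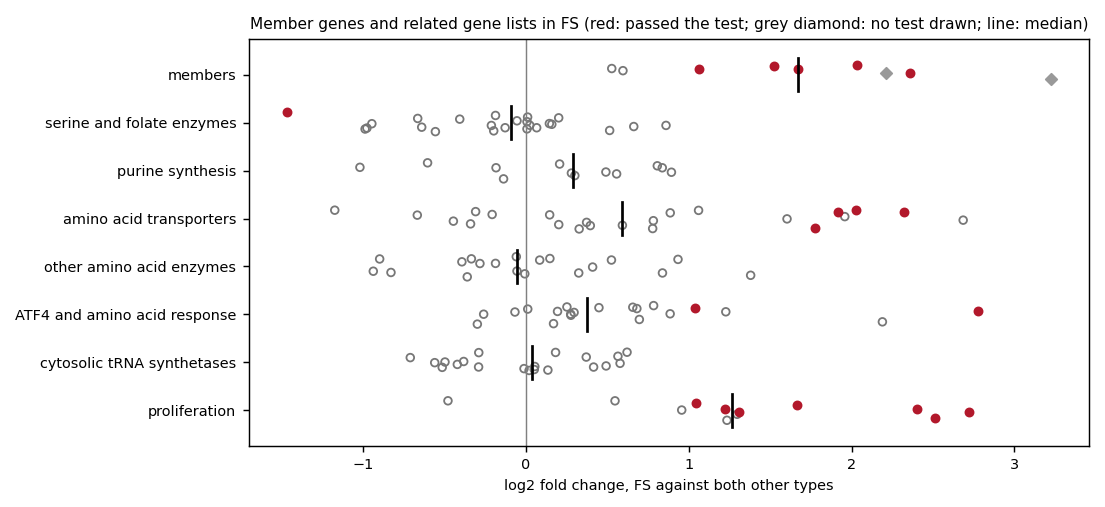
Log2 fold change of FS against both other types (horizontal axis) for the 9 tested genes and for genes of 7 related lists. Points are genes, red ones passed the test, grey diamonds are *ALDH1L2* and *SLC1A4*, and black lines are the medians of the lists, which lie at 1.67 for the 9 genes, at 1.27 for proliferation genes and between -0.09 and 0.59 for the other 6 lists. The median of the 9 genes includes *ALDH1L2* and *SLC1A4*, which were chosen by their levels.

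Proliferation genes were also higher in FS. Of 12, 7 were higher in FS than in both other types and 0 lower, where 5.78% and 3.68% of all genes were. The 7 included *TOP2A* and *CDK1*, genes of DNA untangling and entry into mitosis (log2 fold changes 2.40 and 2.72, edgeR adjusted p = 0.00178 and 0.00180). The summed level of the 12 was 229, 712, 245 and 1065 CPM in S1-02, S1-11, S1-12 and S2-06, 161 to 194 CPM in PNST and 143 to 279 CPM in PWT. S1-02 and S1-12 thus lay within the range of PWT. The median sum of the 12 was 170 CPM in PNST and 226 CPM in PWT. The 10 genes summed, with *ALDH1L2* and *SLC1A4* included, had medians of 136 and 88.3 CPM. S1-02, with the lowest summed proliferation level of the 4 FS, had the highest *ALDH1L2*, *PSPH*, *SLC1A5* and *ASNS* and the lowest *MTHFD2*. Like the summed proliferation genes, *MTHFD2* and *PSAT1* were higher in S1-11 and S2-06 than in S1-02 and S1-12. The summed fibroblast and collagen markers were at 18646 to 99836 CPM in FS, 17567 to 39215 CPM in PNST and 9002 to 22132 CPM in PWT, with all 6 genes detected in every type. Summed mural markers were at 563 to 1551, 393 to 838 and 334 to 644 CPM. The part of proliferation, of collagen-producing or mural cells and of tumors with skeletal muscle or keratinocyte transcripts in the levels of the 10 genes was not tested. Without the 5 tumors with keratinocyte transcripts, 6 of 9 genes passed in FS against both other types (1020 of all 13893 genes tested). Without the 3 with skeletal muscle transcripts 4 did (657 of 15092), *PSAT1*, *MTHFD2* and *ASNS* being those not chosen by their levels.

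The position of the 4 FS relative to the other tumors depended on the scaling for some genes. With TMM factors over all genes, FS tumors lay above the 12 others for *ALDH1L2*, which was chosen by its levels, and for 1 of the 7 tested genes not so chosen, *MTHFD2*. In the same direction this held for 1.34% of all genes tested. The lowest FS was 1.67 times the highest other tumor for *ALDH1L2* and 1.18 times for *MTHFD2*. It was 0.946 times for *SLC1A4* and 0.945 times for *SLC1A5*, values which became 1.02 and 1.11 with TMM factors over the 15408 tested genes.

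Across the 16 tumors, the 36 pairs of the 9 genes had Spearman correlations of log2 CPM between 0.03 and 0.89 (median 0.59), which share libraries and depth and include the differences between types. The closest pairs were *PSAT1* with *ASNS* (0.89), *ALDH1L2* with *MTHFD2* (0.85) and *PSPH* with *ASNS* (0.83). Without the 4 FS, the median over pairs was 0.28 (12 tumors), and those 3 pairs were at 0.82, 0.69 and 0.73. *PSPH*, which passed in no comparison of types, thus followed *ASNS* in PNST and PWT. The 3 lowest pairs were those of *SLC7A5* with *PSPH*, *ASNS* and *PSAT1*, at 0.03, 0.12 and 0.13. With the transporter genes *SLC1A5* and *SLC1A4*, *SLC7A5* was at 0.66 and 0.60.

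Of all tested genes, those whose levels were ordered most like *ALDH1L2* over the 16 tumors were *HGSNAT*, an enzyme of lysosomal heparan sulfate breakdown (Spearman's rho 0.94), *EDIL3*, a secreted integrin ligand (0.93), the kinase gene *MARK1* (0.90), *TPBG*, the trophoblast glycoprotein (0.89), and *NCOA1*, a nuclear receptor coactivator (0.88). The genes most like *SLC1A4* included *C1QTNF2* (0.94), *ADAP1* and *GORASP2* (0.93 each) and *FXYD5* (0.91).

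**Figure D4:**
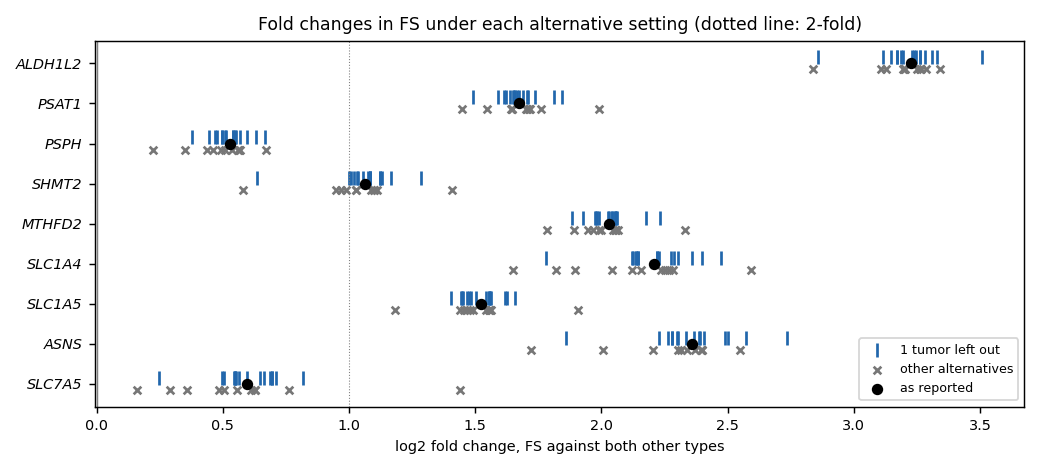
Log2 fold change of FS against both other types (horizontal axis) for the 9 tested genes as reported (black points), with each tumor left out in turn (blue ticks) and under the other alternatives (grey crosses). The dotted line marks a doubling. *ALDH1L2* lies between 2.84 and 3.51 throughout, and *SHMT2* lies on both sides of the line.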

How the data were processed

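Total RNA from archived sections of 16 tumors was depleted of ribosomal RNA and sequenced on an Ion Proton. Per the methods of the study, the authors aligned reads to the ROS-canfam-01 genome with STAR and deposited raw read counts per gene from htseq-count. Versions and the strand setting are not given in the sources used here, so reads of overlapping genes are uncertain. S1 tumors had 3 runs and S2 tumors 1, and runs were summed, so that 34 columns gave 16 samples. Between 22.9% and 30.6% of the listed reads were on genes, and the rest stayed out of library sizes.

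The 15408 genes that reached 10 counts in 4 or more tumors were tested with edgeR 4.0.16 (R 4.3.3) by its quasi-likelihood test with TMM factors over these genes, and p-values were adjusted by Benjamini-Hochberg over all of them. Called genes had an adjusted p under 0.05 with an absolute change of over 1 on the log2 scale. Standard errors were derived from the F statistic. CPM levels used TMM factors over all 41818 genes, and correlations log2(CPM + 1). The scripts were tested on simulated data. Alternatives were DESeq2 1.42.0, other scaling and filters, the prefix as a term, histological groups and tumors left out. Alternatives without tumors holding keratinocyte or skeletal muscle transcripts were chosen after seeing the data. The members and lists were chosen with earlier results of these data known. Named genes were the 10 members, *ATF4*, *MYC*, at most 4 called genes per pathway list and comparison with the smallest p, and the 5 genes most correlated with *ALDH1L2* and with *SLC1A4*. Marker genes used to check labels are named beside them, and some genes are not reported here. Except for S1-04 and S1-05, each tumor is taken as a separate dog.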

Additional observations from a re-analysis of the deposited data

Results flagged for a closer look

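In 29 groups of 4 or 6 tumors, each gene within each type, the highest or lowest tumor was compared with its nearest neighbour by Dixon's ratio. In 2 groups 1 tumor stood apart, and chance gives about 1 in 20 groups. *SLC1A4* was at 33.0 CPM in the PNST S1-09, and the next PNST was at 20.7 CPM. S1-09 was also the highest PNST for *ASNS*, *MTHFD2* and *PSPH*, and for the Schwann cell gene *S100B*, at 78.1 CPM. *SLC7A5* was at 19.6 CPM in the FS S1-11, and the next FS was at 9.96 CPM. S1-11 was the FS with skeletal muscle transcripts, at a summed level of 760 CPM, and its part in this value was not tested.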

How the results depend on the processing

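Unless stated otherwise, counts of the 9 tested genes that passed are given here with *ALDH1L2* and *SLC1A4* included, from which nothing is read. With groups by histological diagnosis, 3 genes passed in FS against both other types (205 of all genes, against 1457). In FS against PNST and in FS against PWT 0 passed (0 and 5 of all genes). In PWT against both other types and in PNST against PWT, 0 of all genes passed with these groups. Among S1 tumors alone, 3 passed in FS against both other types (825 of all genes) and 3 in FS against PNST (522 of all genes). Without the 3 tumors with skeletal muscle transcripts, 4 passed in FS against both other types (657 of all genes), 3 in FS against PNST (675) and 4 in FS against PWT (654). In PWT against both other types, of the 7 genes not chosen by their levels only *ASNS* passed with DESeq2 (880 of all genes, against 327). There, 0 of all genes passed with the prefix as a term, among S2 tumors alone or without the 5 tumors with keratinocyte transcripts. In PNST against PWT, 0 of the 7 genes not chosen by their levels passed in any alternative. The calls of *SLC1A4*, which was chosen by its levels, are not given there. Leaving out each tumor in turn gave 5 to 7 genes in FS against both other types (911 to 1583 of all genes). It gave 3 to 6 in FS against PNST (656 to 1201), 5 to 7 in FS against PWT (1062 to 1898), and 0 in PNST and for grade. In PWT against both other types, 11 of all genes passed without S2-11, 14 without S2-04 and up to 487 without S2-07. Of the 7 genes not chosen by their levels, 0 passed there when 1 tumor was left out. *SLC7A5* in FS against PNST reversed from 0.28 to -0.013 with histological groups, to -0.041 without tumors with skeletal muscle transcripts and to -0.070 without S1-11, within a range of -0.070 to 0.61 over single tumors left out. Of 1043 alternative values of single genes, 958 kept direction and side of the threshold, 77 no longer passed, 5 newly passed and 3 reversed. The cause of these changes was not tested. These values leave out PNST against both other types and most of PNST against PWT and of grade. There, the sign held in 16 of 26 alternatives for *PSPH* and in 26 of 26 for *ASNS* in PNST against PWT. For grade it held in 20 of 28 for *MTHFD2*, 17 of 28 for *PSPH* and 27 of 28 for *SLC1A4*. No paired analysis was possible because the labels give no replicate numbers. Levels under about 5 CPM rest on few reads, most of all in S1-12, where 3 reads correspond to 4.93 CPM.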
